A study of Homo sapiens with 12 samples.

Results

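The 8 genes described here, BRAF, CDKN2A, CDKN2B, MTAP, SMAD4, MYC, ARID1A and RNF43, are genes altered in pancreatic cancer or neighbours of such a gene. They were chosen by name, and each was 1 of the 58302 genes in the deposited table of FPKM (fragments scaled by gene length and library depth). Total RNA was sequenced from 4 human pancreatic cancer cell lines with 3 replicates per line, 12 libraries in all. BxPC-3 and CFPAC-1 were the gemcitabine (GEM)-sensitive parental lines. BxPC-3-GR and the second resistant line, CFPAC-1-GR, had been selected, each from its parent by rising GEM concentrations, so each stands for 1 selection. The records name an epithelial morphology for every line except BxPC-3-GR, which is named mesenchymal. They name 1 RPMI medium for all lines, whereas the study's methods name IMDM for CFPAC-1. Nothing says that replicates came from separate cultures, so p values measure the spread between these libraries, which may be technical.

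Pancreatic ductal carcinoma commonly loses tumor suppressors by deletion, mutation or silencing. CDKN2A and CDKN2B lie side by side on 9p21 and encode inhibitors of the kinases CDK4 and CDK6, which phosphorylate the retinoblastoma protein and let cells enter S phase. MTAP, the next gene on 9p21, encodes the enzyme that salvages methionine from methylthioadenosine and is often lost together with CDKN2A. SMAD4 is the common partner of receptor-activated SMAD proteins in transforming growth factor beta and bone morphogenetic protein signaling. ARID1A is a DNA-binding subunit of the SWI/SNF chromatin remodeler. RNF43 is a membrane ubiquitin ligase that removes Frizzled receptors and so limits WNT signaling. BRAF is a kinase that activates MEK and ERK downstream of RAS, and MYC is a transcription factor that drives ribosome and nucleotide synthesis. GEM is a nucleoside analog that blocks DNA synthesis.

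The lines differed most in which of the genes they expressed. SMAD4 was near zero in all 4 lines, and CDKN2A, CDKN2B and MTAP were near zero or low in both BxPC-3 lines but expressed in both CFPAC-1 lines. A gene was called near zero in a line when all 3 libraries were below 0.1 FPKM, low when the mean was below 1 FPKM, and expressed otherwise. ARID1A, RNF43 and BRAF were expressed in all 4 lines. In the resistant lines, no gene that was near zero or low in the parent reached 1 FPKM, and none that was expressed fell to near zero. FPKM values cannot tell a gene that is lost from one that is silent, and DNA was not analysed here.

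**Figure D1:**
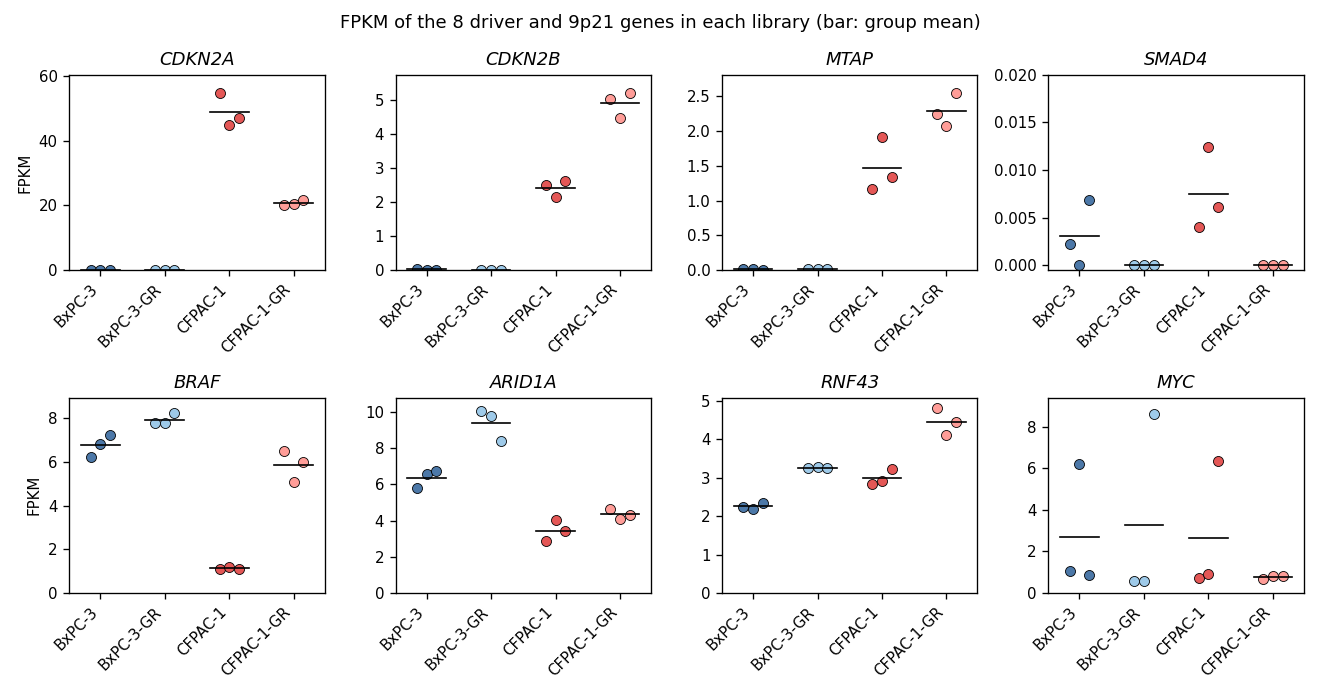
FPKM (vertical axes, linear, a separate scale for each gene) of the 8 genes in each of the 12 libraries, with 1 point per library and a bar at the mean of each line. CDKN2A, CDKN2B and MTAP sit at the axis in both BxPC-3 lines, SMAD4 does not pass 0.0125 FPKM anywhere, and 3 single libraries stand above the rest for MYC.

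The ductal epithelial markers KRT7, KRT8, KRT18, KRT19, EPCAM and CDH1 were expressed in every line (6 of 6). Of 14 listed markers of fibroblasts, leukocytes, endothelium, acinar cells and islets, PTPRC, INS and GCG were listed at 0 in every library and DCN and COL1A2 did not pass 0.0104 FPKM. The markers of these lists above 1 FPKM were the leukocyte marker CD68, up to 36.9 FPKM, in CFPAC-1, the fibroblast marker COL1A1, up to 3.32 FPKM, and the acinar marker CEL, up to 3.64 FPKM. The part of these markers in the results was not tested. VIM, a mesenchymal filament, averaged 6.59 FPKM in BxPC-3, 0.813 in BxPC-3-GR, 126 in CFPAC-1 and 57.9 in CFPAC-1-GR. FN1, a mesenchymal matrix protein, averaged 5.30 and 9.09 FPKM in BxPC-3 and its resistant line and CDH2, the mesenchymal cadherin, 1.99 and 5.40 FPKM. ZEB1, another mesenchymal marker, averaged 0.0329 FPKM in BxPC-3 and 0.00333 in BxPC-3-GR. The means of VIM and ZEB1 were thus lower and those of FN1 and CDH2 higher in the line named mesenchymal. RRM1, the ribonucleotide reductase subunit inhibited by GEM, averaged 29.1 FPKM in BxPC-3 against 413 in its resistant line, and 8.07 FPKM in CFPAC-1 against 306 in CFPAC-1-GR. The steps between low values implied 12600000 to 25200000 fragments per library. Spearman correlations lay between 0.917 and 0.925 for libraries of the same line and between 0.825 and 0.906 for libraries of different lines. In CFPAC-1-GR against CFPAC-1, the log2FC of the tested genes fell with the GC content of their transcripts (Spearman's rho -0.777 across genes, which are not independent replicates), and in CFPAC-1 against BxPC-3 it rose with it (rho 0.628). In BxPC-3-GR against BxPC-3 rho was 0.0388. A log2FC corrected for GC content and length by a spline is therefore given as well for the tested genes of the 8 in each test that involves CFPAC-1.

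CDKN2A (ENSG00000147889, GRCh38 chromosome 9, 21967753 to 21995301, minus strand), CDKN2B (ENSG00000147883, 22002903 to 22009363, minus strand) and MTAP (ENSG00000099810, 21802543 to 21937651, plus strand) are protein-coding neighbours, with gene bounds from GENCODE 29. The 250 bases before their RefSeq transcription starts are shown because these genes were expressed in the CFPAC-1 lines and not in the BxPC-3 lines. These starts differ from the gene bounds. The windows of MTAP and CDKN2B lie partly inside the bounds, and that of the downstream CDKN2A start lies wholly inside them. CDKN2A has more than 1 start, for transcripts that encode the kinase inhibitor p16 and the MDM2-binding protein p14ARF in different reading frames. Each sequence is RefSeq sequence of GRCh38.p14, printed 5′ to 3′ on the strand of the gene, with CG dinucleotides in capitals.
MTAP, chr9:21802386-21802635, plus strand: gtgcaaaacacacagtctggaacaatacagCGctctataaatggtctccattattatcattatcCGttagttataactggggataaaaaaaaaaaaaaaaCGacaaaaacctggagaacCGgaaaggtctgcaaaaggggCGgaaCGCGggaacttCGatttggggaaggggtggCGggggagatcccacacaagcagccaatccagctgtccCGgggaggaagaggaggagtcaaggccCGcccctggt
CDKN2A (downstream start), chr9:21974858-21975107, minus strand: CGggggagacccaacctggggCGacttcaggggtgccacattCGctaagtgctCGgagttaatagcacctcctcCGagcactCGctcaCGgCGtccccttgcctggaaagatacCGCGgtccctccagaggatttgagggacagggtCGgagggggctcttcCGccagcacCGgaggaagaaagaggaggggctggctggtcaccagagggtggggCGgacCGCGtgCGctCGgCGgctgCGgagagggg
CDKN2A (upstream start), chr9:21995325-21995574, minus strand: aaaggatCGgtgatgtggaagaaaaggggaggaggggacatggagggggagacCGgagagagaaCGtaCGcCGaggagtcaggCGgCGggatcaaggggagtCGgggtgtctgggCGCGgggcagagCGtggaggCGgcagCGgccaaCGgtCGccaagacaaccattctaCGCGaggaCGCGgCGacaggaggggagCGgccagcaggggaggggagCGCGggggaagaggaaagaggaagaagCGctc
CDKN2B, chr9:22009306-22009555, minus strand: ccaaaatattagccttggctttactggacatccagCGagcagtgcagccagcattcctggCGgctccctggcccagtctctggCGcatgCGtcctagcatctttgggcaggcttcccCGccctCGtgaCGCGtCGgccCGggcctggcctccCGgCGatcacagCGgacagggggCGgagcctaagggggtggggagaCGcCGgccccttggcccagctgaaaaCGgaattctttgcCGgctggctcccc
Promoters of 7 of the 8 genes were matched in the RefSeq table. Across 35116 promoters of the same length the median number of CG dinucleotides was 11. MTAP had 11, CDKN2A had 24 at the upstream start and 20 at the downstream start, and CDKN2B had 18. The letters GGGCGG, searched on both strands and holding a CG themselves, occurred 2 times for MTAP, 2 times for CDKN2B, once for the downstream CDKN2A start and not for the upstream start, and 42.6% of all promoters held them. The letters TATAAA, searched on both strands, occurred for MTAP and not for the other starts, and 10.7% of all promoters held them. The 4 windows carry no measurement of their own, and methylation was not analysed here.

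CDKN2A was low in BxPC-3, at 0.0498, 0.0630 and 0.116 FPKM in replicates 1 to 3, a mean of 0.0762 ± 0.0349 (SD, n = 3). It was near zero in BxPC-3-GR, at 0.0835, 0.0916 and 0.0697 FPKM (0.0816 ± 0.0111, n = 3). These levels stood for about 3.75 to 9.10 fragments per library on the exon lengths of GENCODE 29, which may differ from the lengths behind the FPKM. Some values of CDKN2B and SMAD4 came to less than 1 fragment on these lengths, so such numbers are approximate. CFPAC-1 had 54.9, 44.7 and 47.0 FPKM (48.9 ± 5.34, n = 3) and CFPAC-1-GR had 20.0, 20.5 and 21.6 FPKM (20.7 ± 0.794, n = 3). All 6 CFPAC-1 and CFPAC-1-GR libraries were above all 6 libraries of the BxPC-3 lines, and the CFPAC-1 libraries did not overlap those of CFPAC-1-GR. The values are per gene and cannot separate p16 from p14ARF. CDKN2B-AS1, an antisense RNA whose exons overlap those of CDKN2A, did not pass 0.536 FPKM in any library, and whether the counting used strand is not given in the sources used here.

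CDKN2B, which encodes the inhibitor p15, had 0.0296, 0.0175 and 0.0100 FPKM in BxPC-3 and 0.0136, 0 and 0.0138 FPKM in BxPC-3-GR, at most about 2.08 fragments per library on the same lengths. The lowest BxPC-3 value came to about 0.695 of a fragment on them, so this maximum is approximate and may be too low. It had 2.49, 2.16 and 2.62 FPKM in CFPAC-1 (2.42 ± 0.236, n = 3) and 5.02, 4.47 and 5.21 FPKM in CFPAC-1-GR (4.90 ± 0.385, n = 3). On the deposited values CDKN2B was thus higher in the resistant CFPAC-1 line in every library, where CDKN2A was lower in every library. The GC content was 44.6% for CDKN2B and 61.4% for CDKN2A. After correction for GC content and length the log2FC was 0.35 for CDKN2B and -0.26 for CDKN2A.

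MTAP had 0.0138, 0.0171 and 0.00843 FPKM in BxPC-3 and 0.0210, 0.0133 and 0.00967 FPKM in BxPC-3-GR. It had 1.16, 1.91 and 1.34 FPKM in CFPAC-1 (1.47 ± 0.395, n = 3) and 2.25, 2.07 and 2.55 FPKM in CFPAC-1-GR (2.29 ± 0.245, n = 3). Both CFPAC-1 lines were above both BxPC-3 lines without overlap. The readthrough gene AL359922.1 shares exons with MTAP on the same strand and did not pass 0.275 FPKM, and the processed pseudogene MTAPP2, a copy elsewhere, did not pass 0.464 FPKM, so a small share of MTAP could be uncertain.

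SMAD4 (ENSG00000141646, chromosome 18, 51028394 to 51085045, plus strand) was listed at 0 in 7 of 12 libraries. The other libraries had 0.00226 and 0.00690 FPKM in BxPC-3 replicates 1 and 3 and 0.00404, 0.0125 and 0.00613 FPKM in CFPAC-1 replicates 1 to 3. All 3 libraries of BxPC-3-GR and all 3 of CFPAC-1-GR were listed at 0. The highest value stood for about 2.06 fragments, and 3 fragments would give at most 0.0181 FPKM in any library, so no fold change is given. At this depth, fragments assigned to SMAD4 did not exceed a few in any line. The readthrough gene AC091551.1 shares exons with SMAD4 and with its neighbour ELAC1 on the same strand and did not pass 0.0405 FPKM. How the counting program assigned shared fragments is not given in the sources used here, and its part in the zeros was not tested.

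The neighbours of these genes were expressed or silent by line as well. Within 3 Mb of MTAP, CDKN2A and CDKN2B, 36 protein-coding genes were listed including these 3. Of the 36, 19 were near zero in all 4 lines, most of them type I interferon genes. Another 8, MTAP and CDKN2B among them, were near zero in both BxPC-3 lines but not in both CFPAC-1 lines, and none showed the reverse. Among the 8, IFNA17 was near zero in CFPAC-1-GR as well and AL359922.1 in CFPAC-1. IFNA17 did not pass 0.159 FPKM in CFPAC-1, and AL359922.1, which shares exons with MTAP, did not pass 0.275 FPKM in CFPAC-1-GR. CDKN2A, low rather than near zero in BxPC-3 itself, is not counted among the 8. The same 3 Mb count was 10 of 105 genes around ARID1A, with 0 the reverse, and 9 of 71 around BRAF, with 5. It was 5 of 60 around RNF43 and 2 of 23 around SMAD4, each with 1 the reverse, and 0 of 11 around MYC. The counts are not alike, since the 9p21 count includes MTAP and CDKN2B, around which its window was drawn. The central gene of every other window did not show this pattern. KLHL9, a substrate adaptor of a cullin ubiquitin ligase, averaged 0.0335 FPKM in BxPC-3 and 0.0120 in BxPC-3-GR against 1.05 in CFPAC-1 and 5.61 in CFPAC-1-GR. DMRTA1, a transcription factor on the other side of CDKN2B, averaged 0.00701 FPKM in BxPC-3, 0 in its resistant line, and 0.231 in CFPAC-1. The nearest gene expressed in all 4 lines was FOCAD (20658309 to 20995955), with means of 3.47 and 3.79 FPKM in BxPC-3 and its resistant line and of 2.47 and 4.62 FPKM in CFPAC-1 and its resistant line. From KLHL9 (from 21329671) to DMRTA1 (to 22455740), no protein-coding gene reached 0.2 FPKM in any library of the BxPC-3 lines.

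**Figure D2:**
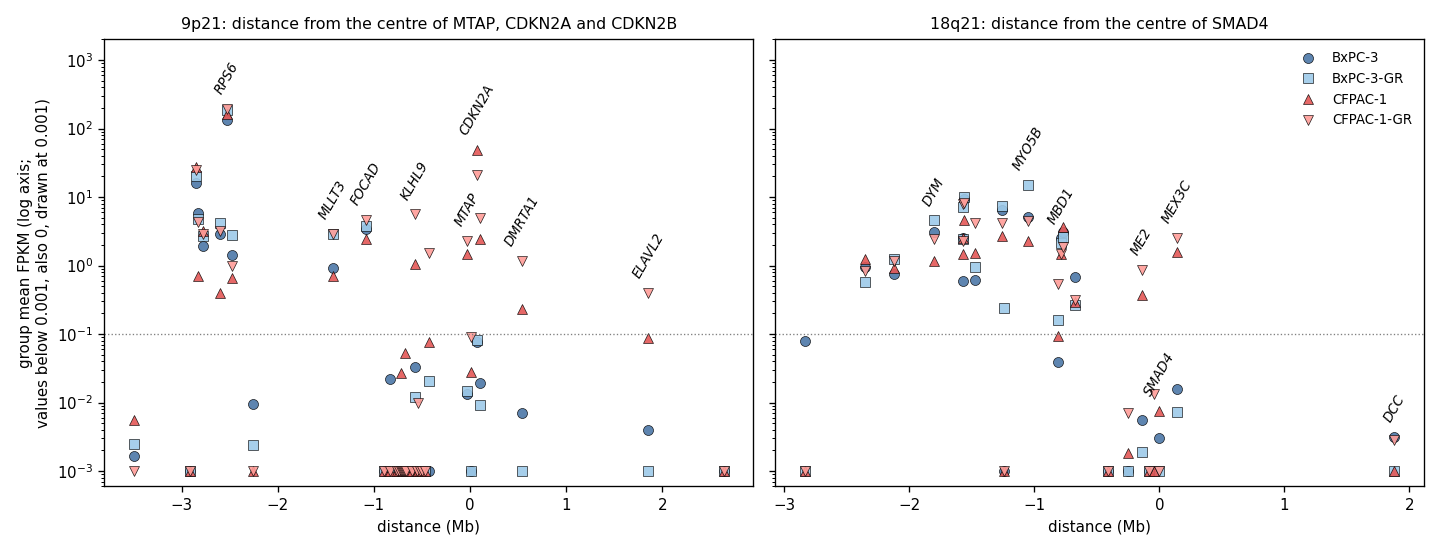
Mean FPKM (log axis, values below 0.001 and zeros drawn at 0.001) of protein-coding genes within 3 Mb of the 9p21 genes (left) and of SMAD4 (right) against the distance in Mb, with 1 symbol per line and a dotted line at 0.1 FPKM. KLHL9, MTAP, CDKN2A and CDKN2B lie above the dotted line in the CFPAC-1 lines only, as do ME2 and MEX3C beside SMAD4.

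Around SMAD4, 23 protein-coding genes lay within 3 Mb, SMAD4 included, of which 7 were near zero in all 4 lines. ME2, the mitochondrial malic enzyme, and MEX3C, an RNA-binding ubiquitin ligase, were near zero in both BxPC-3 lines only. ME2 averaged 0.00560 FPKM in BxPC-3, 0.00190 in BxPC-3-GR, 0.369 in CFPAC-1 and 0.870 in CFPAC-1-GR. MEX3C averaged 0.0156, 0.00723, 1.57 and 2.55 FPKM in the same order. In the CFPAC-1 lines SMAD4 thus stood near zero between ME2 and MEX3C, which had RNA, and in the BxPC-3 lines ME2, SMAD4 and MEX3C were all near zero. ELAC1, which lies between ME2 and SMAD4, was listed at 0 in every library of all 4 lines.

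ARID1A (ENSG00000117713, chromosome 1, 26693236 to 26782104, plus strand) had 5.82, 6.57 and 6.73 FPKM in BxPC-3 (6.37 ± 0.483, n = 3) and 10.1, 9.78 and 8.39 FPKM in BxPC-3-GR (9.41 ± 0.901, n = 3). It had 2.85, 4.03 and 3.40 FPKM in CFPAC-1 (3.42 ± 0.593, n = 3) and 4.66, 4.07 and 4.31 FPKM in CFPAC-1-GR (4.35 ± 0.297, n = 3). The 4 lines did not overlap, although the highest CFPAC-1 library and the lowest CFPAC-1-GR library were close. The antisense RNA AL512408.1, whose exons overlap ARID1A, averaged 1.08 FPKM in BxPC-3 and 1.20 in BxPC-3-GR.

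RNF43 (ENSG00000108375, chromosome 17, 58352500 to 58417595, minus strand) had 2.25, 2.17 and 2.34 FPKM in BxPC-3 (2.26 ± 0.0842, n = 3) and 3.26, 3.27 and 3.24 FPKM in BxPC-3-GR (3.26 ± 0.0141, n = 3). It had 2.84, 2.92 and 3.23 FPKM in CFPAC-1 (3.00 ± 0.206, n = 3) and 4.82, 4.10 and 4.44 FPKM in CFPAC-1-GR (4.46 ± 0.359, n = 3). Both resistant lines were above their parents in every library. In the order of levels, CFPAC-1 and BxPC-3-GR were neighbours whose closest libraries, at 3.23 and 3.24 FPKM, were nearly equal. SUPT4H1, a more abundant gene, shares exonic bases with RNF43 on the same strand, so the counting could split reads between them.

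BRAF (ENSG00000157764, chromosome 7, 140719327 to 140924764, minus strand) had 6.21, 6.84 and 7.26 FPKM in BxPC-3 (6.77 ± 0.526, n = 3) and 7.78, 7.79 and 8.24 FPKM in BxPC-3-GR (7.94 ± 0.264, n = 3). It had 1.09, 1.19 and 1.10 FPKM in CFPAC-1 (1.13 ± 0.0524, n = 3) and 6.51, 5.08 and 6.0 FPKM in CFPAC-1-GR (5.86 ± 0.724, n = 3). CFPAC-1 stood below the other 3 lines, and the libraries of CFPAC-1-GR overlapped those of BxPC-3. At 40.0% the GC content of BRAF was among the lower of the 8 genes, which ranged from 39.1% for MTAP to 61.4% for CDKN2A.

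MYC (ENSG00000136997, chromosome 8, 127735434 to 127741434, plus strand) had 1.05, 6.21 and 0.869 FPKM in BxPC-3 and 0.573, 0.574 and 8.60 FPKM in BxPC-3-GR. It had 0.726, 0.933 and 6.35 FPKM in CFPAC-1 and 0.676, 0.811 and 0.819 FPKM in CFPAC-1-GR. BxPC-3 replicate 2, BxPC-3-GR replicate 3 and CFPAC-1 replicate 3 thus held 7.15, 15 and 8.75 times the lowest library of their line, while CFPAC-1-GR ranged over 1.21 times. The high values were not a matter of few fragments, since BxPC-3-GR ranged from about 37.2 to 641 fragments on GENCODE 29 lengths. Among genes that averaged 1 FPKM or more in a line, a range of 5-fold or more was found for 0.946% in BxPC-3, 0.862% in its resistant line and 0.826% in CFPAC-1. The other 7 genes, where they were expressed, ranged over at most 1.65 times within a line. No mean ± SD of MYC is given, because in these 3 lines the mean rests on 1 library.

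In BxPC-3-GR against BxPC-3, ARID1A, RNF43 and BRAF rose, each by less than 2-fold. Of the 8 genes, 4 averaged 1 FPKM or more over the 6 libraries and were tested. Of these, 3 passed an adjusted p of 0.05 by limma on log2(FPKM + 1), against 57.7% of all 11710 genes tested, and 3 did not overlap between the lines, against 66.1%. None was significantly differentially expressed (SDE), that is, with an |Log2FC| above 1 as well, against 7.76% of all genes. ARID1A rose by a log2FC of 0.50 (SE 0.0859, limma adjusted p = 0.0033) and RNF43 by 0.39 (SE 0.0462, limma adjusted p = 0.00071), and after correction they rose by 0.34 and 0.37. After correction 2 of the 4 passed, against 59% of all genes, and none was SDE, against 7.69%. BRAF rose by 0.20 (SE 0.0657, limma adjusted p = 0.038), but its corrected log2FC was -0.00824 (limma adjusted p = 0.89). With correction for GC content alone its log2FC was 0.23 (limma adjusted p = 0.013). Leaving out any library but BxPC-3 replicate 3 ended the BRAF call on the deposited values, with adjusted p up to 0.1. MYC had a log2FC of -0.07 with a 95% interval from -2.18 to 2.03 (limma adjusted p = 0.95), which reached past 4-fold in both directions. CDKN2A, CDKN2B, MTAP and SMAD4 were below the minimum in both lines and were not tested.

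In CFPAC-1-GR against CFPAC-1, BRAF, CDKN2B, RNF43, MTAP and ARID1A rose and CDKN2A fell. Of the 8 genes 7 were tested, of which 6 passed, against 79.6% of 12051 genes, and 6 did not overlap, against 82.1%. BRAF and CDKN2A were SDE, against 32.2% of all genes. BRAF rose by a log2FC of 1.68 (SE 0.0913, limma adjusted p = 8e-06), a 5.20-fold ratio of mean FPKM. After correction it rose by 0.36 (limma adjusted p = 0.0015), and with correction for GC content alone by 0.73 (limma adjusted p = 2e-04). CDKN2A fell by 1.20 on the log2 scale (SE 0.0917, limma adjusted p = 2.5e-05), and after correction by 0.26 (limma adjusted p = 0.043), a call that ended with the replicate block added (limma adjusted p = 0.052) and with correction for GC content alone (log2FC -0.23, limma adjusted p = 0.056). CDKN2B rose by a log2FC of 0.79 (limma adjusted p = 0.00012) and by 0.35 after correction (limma adjusted p = 0.011). RNF43 had a log2FC of 0.45 before the correction (limma adjusted p = 0.0015) and 0.47 after it (limma adjusted p = 0.0018), but 0.23 under median-of-ratios scaling and 0.06 under upper-quartile scaling, where its call ended (limma adjusted p = 0.53).

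MTAP turned its direction under the correction. Its log2FC was 0.42 as deposited (SE 0.125, limma adjusted p = 0.017) and -0.85 after correction (limma adjusted p = 0.00096), and without CFPAC-1 replicate 1 or 3 or CFPAC-1-GR replicate 3 the call on the deposited values was lost, with adjusted p up to 0.058. It also ended under median-of-ratios scaling (log2FC 0.25, limma adjusted p = 0.11) and upper-quartile scaling (log2FC 0.10, limma adjusted p = 0.46). ARID1A had a log2FC of 0.28 (SE 0.110, limma adjusted p = 0.049) and 0.67 after correction (limma adjusted p = 0.0011). Leaving out any library but CFPAC-1 replicate 2 ended the call on the deposited values, with log2FC from 0.18 to 0.38 and adjusted p up to 0.13, and the log2FC was 0.06 under median-of-ratios scaling (limma adjusted p = 0.6) and -0.12 under upper-quartile scaling (limma adjusted p = 0.32). MYC had a log2FC of -0.72 with a 95% interval from -1.97 to 0.53 (limma adjusted p = 0.24), and -0.17 after correction (limma adjusted p = 0.8). After correction 6 of the 7 tested genes passed, against 62.1% of all genes, and none was SDE, against 9.43%. The median log2FC of all genes was 0.13 as deposited, -0.10 under median-of-ratios scaling and -0.29 under upper-quartile scaling. For a single gene, the smallest p that an exact 2-sided permutation test can give in this design is 0.1.

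**Figure D3:**
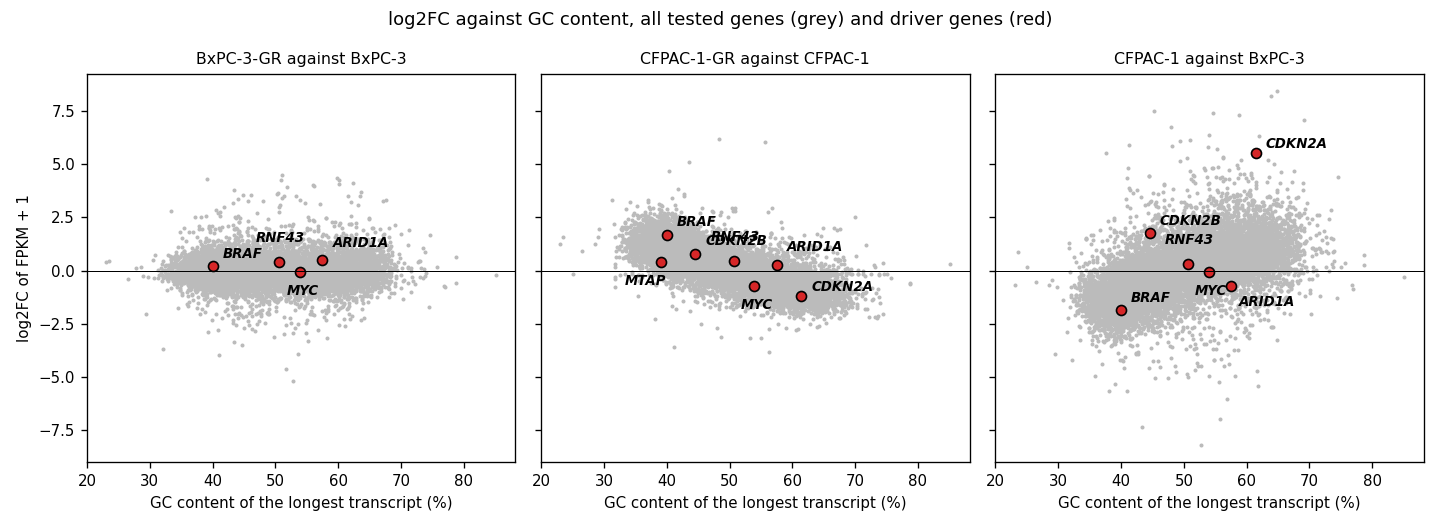
log2FC of FPKM + 1 (vertical axes) against the GC content of the longest transcript in percent for all tested genes (grey points) and the tested driver genes (red points) in 3 comparisons. The cloud is level for the BxPC-3 lines and sloped in both comparisons that involve CFPAC-1, where BRAF and CDKN2A lie toward its opposite ends.

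Between the parental lines, CDKN2A and CDKN2B were higher in CFPAC-1 and BRAF and ARID1A were lower. In CFPAC-1 against BxPC-3, 6 genes were tested, of which 5 passed, against 84.2% of 11842 genes, and 5 did not overlap, against 85.6%. CDKN2A, CDKN2B and BRAF were SDE, against 44.5% of all genes. CDKN2A and CDKN2B passed the minimum only through CFPAC-1, so their calls add nothing to their levels. The log2FC was 5.53 for CDKN2A (4.56 corrected), 1.74 for CDKN2B (2.19 corrected) and -1.87 for BRAF (-0.52 corrected), with limma adjusted p of 7.6e-08, 8.4e-07 and 6.8e-07. The pseudocount of 1 understates these folds, and the ratio of mean FPKM was 641 for CDKN2A, whose BxPC-3 mean rests on few fragments. ARID1A had a log2FC of -0.74 (limma adjusted p = 0.00065) and -1.18 after correction, which made it SDE in place of BRAF, against 27% of all genes. RNF43 was higher in CFPAC-1 by 0.30 (limma adjusted p = 0.0032), by 0.24 after correction (limma adjusted p = 0.0064) and by 0.059 with correction for GC content alone (limma adjusted p = 0.39). MTAP was not tested at this minimum. MYC had a log2FC of -0.06 with a 95% interval from -1.83 to 1.72 (limma adjusted p = 0.94), and -0.71 after correction (limma adjusted p = 0.41).

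The response of BRAF to selection differed between the lines. This test shares its libraries with the comparisons above. In a test of the interaction over all 12 libraries, 6 genes were tested, of which 3 passed, against 76.6% of 12210 genes, and BRAF and CDKN2A also differed by an |Log2FC| above 1, against 38% of all genes. CDKN2A and CDKN2B, 2 of the 3, passed the minimum only through the CFPAC-1 lines and were near zero or low in both BxPC-3 lines, so their differences restate their change in CFPAC-1-GR. The response of BRAF was higher in the CFPAC-1 lines by 1.48 on the log2 scale (limma adjusted p = 4.6e-07), and by 0.44 after correction (limma adjusted p = 1e-04). For CDKN2A the difference was -1.20 (limma adjusted p = 1.1e-06), and -0.16 after correction (limma adjusted p = 0.2). After correction none of the 6 exceeded a |Log2FC| of 1, against 19.6% of all genes. For CDKN2B it was 0.80 (limma adjusted p = 1.1e-05), and 0.39 after correction (limma adjusted p = 0.0036). For RNF43 the difference was 0.06 with a 95% interval from -0.13 to 0.25 (limma adjusted p = 0.53), 0.12 after correction (limma adjusted p = 0.25), -0.18 under median-of-ratios scaling (limma adjusted p = 0.077) and -0.31 under upper-quartile scaling (limma adjusted p = 0.0059). For ARID1A it was -0.22 with a 95% interval from -0.54 to 0.10 (limma adjusted p = 0.19), and 0.38 after correction (limma adjusted p = 0.024). The ARID1A difference was -0.47 under median-of-ratios scaling (limma adjusted p = 0.011) and -0.59 under upper-quartile scaling (limma adjusted p = 0.0023). MYC had a difference of -0.65 (limma adjusted p = 0.61), and -0.12 after correction (limma adjusted p = 0.93).

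**Figure D4:**
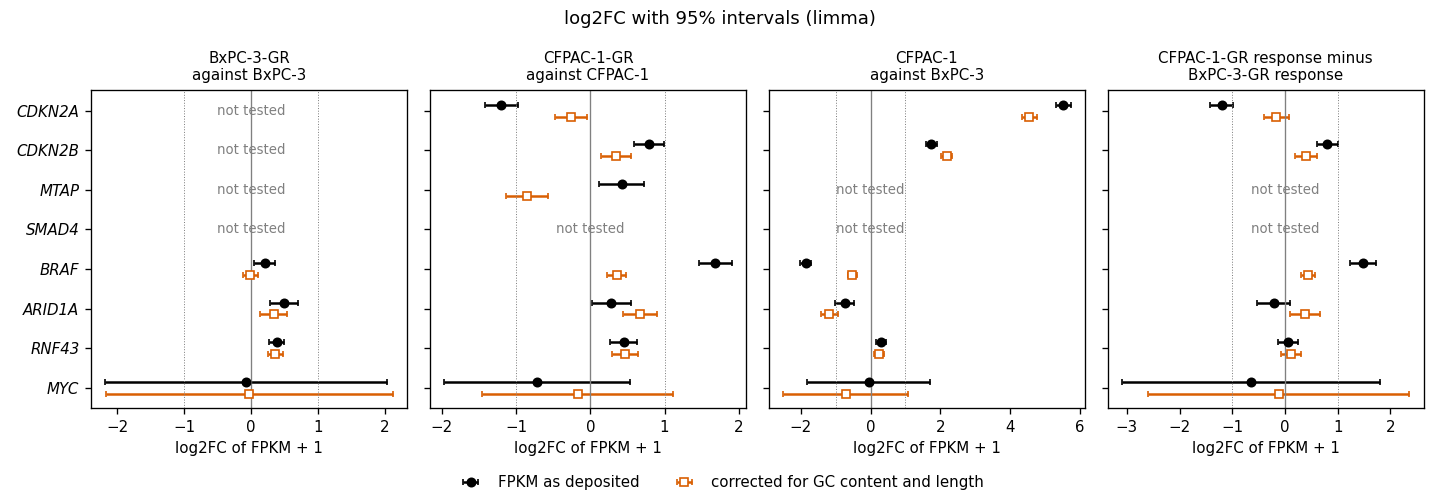
log2FC of FPKM + 1 (horizontal axes, a separate scale for each panel) with 95% intervals for the 8 genes in 3 comparisons and for the difference of the resistance response between the lines, as deposited (black circles) and corrected for GC content and length (orange squares). Dotted lines mark an |Log2FC| of 1. RNF43 keeps its place under the correction in every panel, and BRAF, CDKN2A and MTAP shift most in CFPAC-1-GR against CFPAC-1.

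Genes that act with CDKN2A and CDKN2B on the retinoblastoma pathway were read from a list of 22 that holds both. Neither was tested in BxPC-3-GR. In CFPAC-1-GR CDKN2B is among those that rose and CDKN2A among those that fell. In BxPC-3-GR 17 were tested, of which 3 rose and 6 fell (26.2% and 31.5% of all genes did), with a median log2FC of -0.12 against -0.05 for all genes. CCNE1, a cyclin that activates CDK2, fell from 6.73 ± 0.276 to 1.92 ± 0.167 FPKM (n = 3 each, log2FC -1.41, limma adjusted p = 1.8e-05). CDKN2C, the inhibitor p18, rose from 2.69 to 6.28 FPKM, and CDKN1B, the inhibitor p27, from 10.4 to 18.8 FPKM. RBL1, a relative of the retinoblastoma protein, fell from 12.3 to 6.53 FPKM. In CFPAC-1-GR 18 were tested, of which 10 rose and 5 fell (44.6% and 34.9% of all genes did), and 12 rose and 4 fell after correction. CDK6, the kinase that p16 and p15 inhibit, rose from 1.81 ± 0.299 to 17.4 ± 3.69 FPKM (n = 3 each, log2FC 2.70, 1.48 corrected). E2F1, a transcription factor held back by the retinoblastoma protein, fell from 93.8 to 27.6 FPKM (log2FC -1.73, -0.62 corrected). RB1, the retinoblastoma gene, rose from 1.69 to 6.95 FPKM (log2FC 1.55, 0.41 corrected).

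Genes of methionine salvage and of the arginine methyltransferase PRMT5, which methylthioadenosine inhibits, stand beside MTAP. Of 15 listed, 14 were tested in BxPC-3-GR, of which 1 rose and 9 fell, against 26.2% and 31.5% of all genes, with a median log2FC of -0.54 against -0.05, and the same counts were found after correction. SRM, the spermidine synthase that produces methylthioadenosine, fell from 40.5 to 11.1 FPKM (log2FC -1.79, limma adjusted p = 0.00052). ODC1, the first enzyme of polyamine synthesis, fell from 44.9 to 25.2 FPKM and PRMT5 from 20.8 to 11.7 FPKM. In CFPAC-1-GR all 15 were tested, of which 9 rose and 3 fell, against 44.6% and 34.9% of all genes, and 6 rose and 3 fell after correction, 62.1% of all genes passing in either direction. SRM fell there as well, from 88.5 to 24.3 FPKM (log2FC -1.81, -0.62 corrected).

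Transducers that work with SMAD4 were read from a list of 17, which holds SMAD4 itself, tested in neither comparison. In BxPC-3-GR 13 were tested, 2 rose, 3 fell and 8 did not pass, against 26.2% of all genes that rose and 31.5% that fell, and none was SDE. SKI, a corepressor of SMAD proteins, fell from 29.8 to 16.1 FPKM (log2FC -0.85), and TGFBR2, a receptor for transforming growth factor beta, from 30.5 to 20.8 FPKM (log2FC -0.53). In CFPAC-1-GR 12 were tested, of which 9 rose and 2 fell (44.6% and 34.9% of all genes), and 9 rose and 1 fell after correction. BMPR2, a receptor of bone morphogenetic proteins, rose from 2.19 to 16.0 FPKM (log2FC 2.42, 1.13 corrected) and was the 1 gene of the list that stayed SDE after correction.

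In the list of RAF, MEK and ERK kinases with their adaptors, 17 of 19 genes were tested in both lines. BRAF itself is 1 of the 17. It is counted among those that rose in each resistant line and among those SDE before correction in CFPAC-1-GR. In BxPC-3-GR 7 rose and 3 fell, against 26.2% and 31.5% of all genes. MAPK3, which encodes ERK1, rose from 3.80 to 6.84 FPKM (log2FC 0.71), and MAP2K2, which encodes MEK2, from 7.32 to 11.5 FPKM (log2FC 0.59). In CFPAC-1-GR 9 rose and 4 fell, against 44.6% and 34.9% of all genes. Of the 17, 11 were SDE before correction and 1 after it, against 32.2% and 9.43% of all genes, whose share fell as well. SOS1, an exchange factor that loads RAS with GTP, rose from 0.651 to 4.43 FPKM (log2FC 1.71, 0.49 corrected).

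The genes known as MYC targets in ribosome and nucleotide synthesis moved in 1 direction in BxPC-3-GR. All 20 listed were tested, none rose and 16 fell, 7 of them SDE, against 31.5% and 3.62% of all genes. Their median log2FC was -0.74 against -0.05 for all genes, and after correction 16 fell. NOP56, a component of the particles that modify ribosomal RNA, fell from 28.9 to 11.4 FPKM (log2FC -1.27, limma adjusted p = 2e-04). RRS1, a ribosome assembly factor, fell from 38.3 to 15.4 FPKM (log2FC -1.26). NOP16, another nucleolar protein, fell from 7.50 to 3.04 FPKM (log2FC -1.08). SRM and ODC1, already described, are also in this list. In CFPAC-1-GR 9 of the 20 rose and 8 fell (44.6% and 34.9% of all genes), with a median log2FC of 0.03 against 0.13 for all genes. The interaction was positive for 13 and negative for 3 of the 20, against 44.9% and 31.6% of all genes, and after correction 17 and 2 passed in these directions, 64.4% of all genes passing in either. MYC RNA itself gave no call in any of these comparisons. The list was drawn from general knowledge of MYC, but with earlier results of these data known, so its counts are a description. It holds genes that other regulators also control.

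Among the partners and antagonists of MYC, listed with MYC itself, 10 of 13 genes were tested in BxPC-3-GR, 5 rose and 2 fell (26.2% and 31.5% of all genes). MYC is 1 of the 10 and did not pass. MXI1, a repressor that competes with MYC for its partner MAX, rose from 1.48 to 6.49 FPKM (log2FC 1.56, limma adjusted p = 0.01), and MXD4, another such repressor, from 1.62 to 5.03 FPKM (log2FC 1.21). MYCL, a relative of MYC, rose from 0.472 to 1.59 FPKM (log2FC 0.81). In CFPAC-1-GR MXI1 rose from 1.14 to 3.73 FPKM (log2FC 1.12, 0.56 corrected), while MXD4 fell from 5.00 to 3.01 FPKM (log2FC -0.58, 0.02 corrected). Of the 8 tested protein-coding neighbours of MYC within 3 Mb, 7 rose and none fell in BxPC-3-GR, against the same shares, with a median log2FC of 0.75 against -0.05 for all genes. SQLE, an enzyme of sterol synthesis, averaged 9.52 FPKM in BxPC-3 and 18.8 in BxPC-3-GR, and WASHC5, a subunit of an actin-regulating complex on endosomes, 7.84 and 16.8 FPKM. In CFPAC-1-GR 6 of 8 rose and none fell, against 44.6% and 34.9% of all genes, with a median log2FC of 0.61 (0.33 corrected). In the other windows, the neighbours that rose and fell in BxPC-3-GR numbered 6 and 1 of 8 at 9p21. They numbered 36 and 14 of 71 around ARID1A and 12 and 6 of 32 around RNF43. Around BRAF they numbered 8 and 6 of 27 and around SMAD4 3 and 1 of 8. In CFPAC-1-GR they numbered 5 and 0 of 8 at 9p21 and 22 and 4 of 32 around RNF43. Around SMAD4 they numbered there 7 and 1 of 12, around BRAF 15 and 8 of 28 and around ARID1A 23 and 30 of 79. These counts are on the deposited values. The median log2FC in CFPAC-1-GR was 0.94 at 9p21 (0.23 corrected), 0.84 around RNF43 (0.41 corrected) and 0.47 around SMAD4 (0.23 corrected). It was 0.26 around BRAF (0.05 corrected), and around ARID1A it turned from -0.06 to 0.24 under the correction.

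SWI/SNF subunits showed no common direction. In BxPC-3-GR 21 of 26 were tested, 5 rose, ARID1A among them, and 10 fell, against 26.2% and 31.5% of all genes, and none was SDE, against 7.76%. PHF10, a subunit of the PBAF form of the complex, rose from 5.94 to 12.4 FPKM (log2FC 0.94), while SMARCD2 fell from 12.2 to 7.57 FPKM (log2FC -0.63). In CFPAC-1-GR 20 were tested, 10 rose and 8 fell, against 44.6% and 34.9% of all genes. Of the 20, 7 were SDE and none after correction, against 32.2% and 9.43%. ARID2, another PBAF subunit, rose from 0.861 to 5.87 FPKM (log2FC 1.87, 0.74 corrected).

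Genes of WNT receptor turnover and WNT response, listed with RNF43, were mixed. RNF43 itself is counted among those that rose in each resistant line. In BxPC-3-GR 16 of 30 were tested, of which 8 rose and 5 fell, against 26.2% and 31.5% of all genes. The receptors LRP5, FZD2 and FZD5 rose by log2FC of 1.45, 1.26 and 1.14 and the secreted inhibitor DKK1 fell (log2FC -1.18). In CFPAC-1-GR 7 of 16 rose and 4 fell, against 44.6% and 34.9% of all genes, and 9 rose and 3 fell after correction. LRP5, which rose in BxPC-3-GR, fell from 131 to 47.4 FPKM there (log2FC -1.46, -0.57 corrected), and FZD6 rose from 0.640 to 3.25 FPKM (log2FC 1.37, 0.40 corrected).

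**Figure D5:**
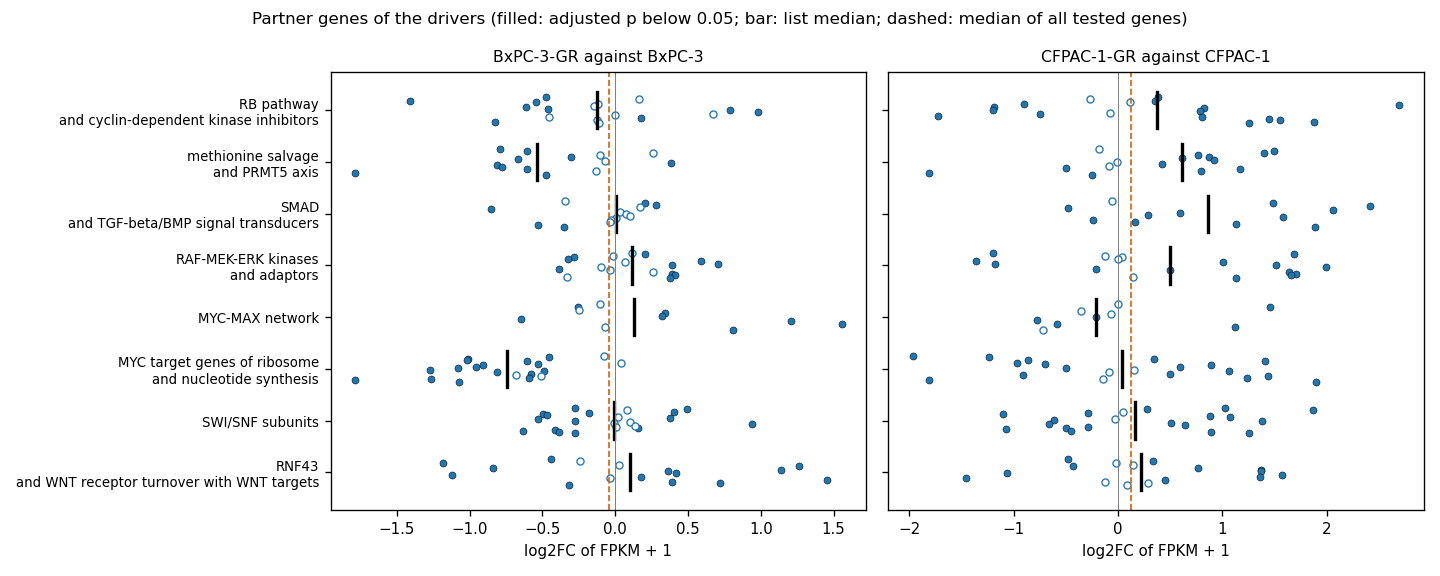
log2FC of FPKM + 1 (horizontal axes) of the tested genes in 8 lists of partner genes, in BxPC-3-GR against BxPC-3 (left) and CFPAC-1-GR against CFPAC-1 (right), as deposited. Each list except the MYC targets also holds the driver gene or genes it stands beside, drawn where tested. Filled points passed an adjusted p of 0.05, thick bars are list medians and the dashed line is the median of all tested genes. In the left panel the MYC targets lie to the left of it with a median of -0.74.

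The genes whose levels over the 12 libraries were most like each gene were read by Pearson's r of log2(FPKM + 1) among 12209 other genes, as a description without a test, since the 4 lines set most of each pattern. CDKN2A was most like SMO, the hedgehog signal transducer, RIPK4 and SALL2 (r of 0.999 each), all near zero or low in the BxPC-3 lines and lower in CFPAC-1-GR than in CFPAC-1. CDKN2B was most like TMPRSS2, ATP10A and AC092118.1 (r 0.998, 0.998 and 0.998). ARID1A was most like CHD4, an ATPase of another remodeler, with r of 0.980. BRAF was most like IPO8, an importin, with r of 0.999, and RNF43 like the kinase MAP3K8 with r of 0.981. For MYC no gene passed an r of 0.770, that of FAM214B.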

How the data were processed

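The deposited table holds FPKM, made by the authors on the GRCh38 assembly, with 58302 genes in rows and 12 libraries in columns. FPKM scales fragments to gene length and to library depth. The submitters' processing notes name Trimmomatic 0.27, FastQC 0.10.1 and TopHat2 2.0.8 and list the builds hg19 and GRCh38. The counting program and its use of strand are not given in the sources used here. Only 74.7% to 79.3% of low values equalled a whole number of fragments (tolerance 0.02), so no count test was run.

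Lines were compared with limma 3.58.1 in R 4.3.3 (lmFit, eBayes, 2-sided) on log2(FPKM + 1), over genes averaging 1 FPKM or more across the fitted libraries, with no block. This scale understates changes of low genes. P values were adjusted by Benjamini-Hochberg over all genes tested. GENCODE 29 held 58039 of the genes. The correction fitted, in each library, a natural spline with 5 degrees of freedom on GC content and another on log length to the deviation from the mean of the lines. The fit without the correction was tested on simulated data with large changes in well expressed genes and no GC bias. That test did not cover the correction, small changes or genes of low FPKM. The 8 genes, the partner lists, the markers and the 3 Mb windows were chosen with earlier results of these data known, and of each list the 4 genes with the largest |Log2FC| at most were named, apart from MXD4, which was followed into the second line. The replicate numbers did not pair the libraries. Alternatives were a pseudocount of 0.1, a minimum of 0.1 FPKM or none, 1 fit for all libraries, the replicate block, upper-quartile and median-of-ratios scaling, a trended prior, protein-coding genes only and each library left out. A correction for GC content alone and the log2 ratio of mean FPKM were added after the values were seen. Figures used matplotlib 3.10.9.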

Additional observations from a re-analysis of the deposited data

Results flagged for a closer look

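In the interaction test of limma over all 12 libraries, which compared the change from parent to resistant line between the CFPAC-1 and the BxPC-3 lines, 3 genes passed. The difference (CFPAC-1 lines minus BxPC-3 lines, log2 scale) was 1.48 for BRAF, which was higher in 3 of 3 CFPAC-1-GR libraries than in any CFPAC-1 library and in 3 of 3 BxPC-3-GR libraries than in any BxPC-3 library. It was -1.20 for CDKN2A and 0.80 for CDKN2B. Both stayed below 0.2 FPKM in every library of the BxPC-3 lines and passed the minimum only through the CFPAC-1 lines, so their differences restate the change in CFPAC-1-GR (log2FC -1.20 and 0.79). The GC content of the transcripts moved with these differences across all tested genes (Spearman's rho -0.696), and the corrected differences were 0.44 for BRAF, -0.16 for CDKN2A (limma adjusted p = 0.2) and 0.39 for CDKN2B.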

How the results depend on the processing

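No gene of the 8 was SDE in BxPC-3-GR under any alternative. In CFPAC-1-GR 2 were SDE (BRAF and CDKN2A), but 0 when corrected for GC content and length, 0 with the replicate block added to it and 1 (ARID1A) when corrected for GC content alone. In the interaction 2 exceeded these thresholds, but 0, 0 and 0 under the same 3 settings, and 3 (CDKN2B added) with a pseudocount of 0.1. In CFPAC-1 against BxPC-3 the count was 3, 4 (MTAP added) with a minimum of 0.1 FPKM or none, and 2 to 3 with 1 library left out, since CDKN2B fell below the minimum without CFPAC-1 replicate 1 or 3.

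These log2FC changed sign. In BxPC-3-GR, BRAF became -0.00824 with the correction, with or without the block, and MYC 0.26 as a log2 ratio of mean FPKM. In CFPAC-1-GR, MTAP became -0.85 with the correction, with or without the block, and -0.59 with GC content alone, and ARID1A became -0.12 under upper-quartile scaling. In CFPAC-1 against BxPC-3, MYC became 0.067 and 0.14 under median-of-ratios and upper-quartile scaling. In the interaction, ARID1A became 0.38 with the correction, with or without the block, and 0.58 with GC content alone, and RNF43 became -0.18 and -0.31 under median-of-ratios and upper-quartile scaling. With 1 library left out, MYC ranged from -0.94 to 0.56 in BxPC-3-GR, from -0.73 to 0.57 between the parental lines and from -1.27 to 0.22 in the interaction. The cause was not tested.

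Deviations of same-numbered libraries correlated between -0.143 and 0.0959, so the numbers were not taken to pair the libraries. The replicate block left the SDE counts at 0, 2, 3 and 2 and ended 1 call on the deposited values, ARID1A in CFPAC-1-GR (limma adjusted p = 0.093), and with the correction 1 more, CDKN2A (limma adjusted p = 0.052). That ARID1A call also ended with a pseudocount of 0.1, a minimum of 0.1 FPKM or none and both other scalings. In CFPAC-1-GR, upper-quartile scaling left 3 of the 6 calls (BRAF, CDKN2A and CDKN2B) and ended those of RNF43 (log2FC 0.06) and MTAP (log2FC 0.10), and median-of-ratios scaling left 4. The calls of RNF43 in both resistant lines held with each library left out (log2FC 0.37 to 0.41 and 0.40 to 0.49). In the BxPC-3 lines the values of SMAD4, CDKN2B and MTAP rest on few fragments, and 3 libraries per line limit MYC. Over all genes tested, the SDE count in BxPC-3-GR was 909, and 1429 with a pseudocount of 0.1. Correction for GC content and length, and for GC content alone, took it from 3880 to 1134 and 1279 in CFPAC-1-GR, from 5274 to 3195 and 3330 between the parental lines, and from 4643 to 2386 and 2446 in the interaction. Genes passing the adjusted p between the parental lines numbered 9969, and 15444 with no minimum FPKM.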
